A study of Mus musculus with 270 samples.

Results

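The kidneys of 26-month-old mice (26 M, n = 5) were compared with those of 20-month-old mice (20 M, n = 7). All animals were male wild-type C57BL/6J mice from a single cohort, untreated and killed at their age, so each mouse was measured once and the 2 groups hold different animals. The 12 kidneys are part of 45 kidney libraries of 6 ages, from 3 M to 26 M, and the series holds 270 libraries of 6 organs in the tables used here. Animals that met humane endpoints, such as an ulcerating tumor, had been euthanized, so the oldest group holds mice that had not met them. A gene entered when 5 or more of the kidney libraries held 10 or more normalized counts of it, which left 16839 genes, and all of them are members of the comparison. A normalized count is the number of reads on a gene divided by the size factor of its library, and differences are given as log2(normalized count + 1) at 26 M minus 20 M, with the standard error (SE) of the fit. P-values are two-sided moderated tests from limma with 1 mean per age, Benjamini-Hochberg adjusted across these genes, and a gene was called when its adjusted p did not exceed 0.05.

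The kidney filters plasma in the glomerulus, whose filter is held by podocytes, and then recovers solutes along the tubule. The proximal tubule takes back glucose, phosphate and amino acids and secretes organic anions and cations, and it burns fatty acids to do so. When it is injured, its cells are known to lose these transporters and to make secreted or shed proteins such as *Havcr1* (KIM-1) and *Lcn2* (NGAL), and macrophages and matrix-producing fibroblasts gather around it. The distal segments (thick ascending limb, distal convoluted tubule and collecting duct) set the final salt and water content of the urine.

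Between 20 M and 26 M, 16 of 20 proximal tubule markers were called higher in the older mice, and all 20 differences were above 0. Genes called lower included 15 of 24 of tubule injury, 12 of 21 of macrophages, 14 of 22 of NF-kB and STAT3 signalling, 12 of 36 of the extracellular matrix and 11 of 30 of the cell cycle. In all, 1075 genes were called, 6.38% of those tested. Of these, 549 were higher at 26 M (3.26% of the tested genes, median difference 1.02) and 526 were lower (3.12%, median difference -1.23). The median difference over all tested genes was -0.052. Differences of at least 1 log2 unit were seen in 281 of the higher and 360 of the lower genes. The 2 groups did not overlap in 186 genes that were higher at 26 M (1.1% of the tested genes) and in 245 that were lower (1.45%).

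The libraries held 4176085 to 9010499 reads on genes at 20 M (median 6252196) and 5188694 to 17759352 at 26 M (median 6511087), and the deepest, of mouse c3775, is the only one of the 12 whose column name carries an unexplained suffix b. Defining genes of the nephron were present in each group, and most lists of other tissues were low. Hepatocyte genes took at most 0.0208% of the normalized counts in any of the 12 libraries, in c3580. Cardiomyocyte genes took at most 0.0146% and skeletal muscle fibre genes at most 0.00733%, both in c3775. Single libraries stood apart. The neuronal gene *Snap25* had 2013 normalized counts in c3054 and 1576 in c2140 of 20 M and 929 in c3775 of 26 M. It had 523 in c3667 of 26 M and 308 in c3580 of 20 M, against 53.9 to 102 in the rest. The brain list took up to 0.123% of the counts, in c3054, which is above the 0.12% that the macrophage list reached at 26 M. The airway gene *Scgb1a1* had 302 in c3775 and at most 2.09 in the others. The hepatocyte gene *Alb* had 885 in c3580, the shallowest of the 12 libraries, and 28.5 to 125 in the others. The adrenal genes *Cyp11b1* and *Cyp11b2* were listed at 0 in all 12 libraries. The 13 protein genes of the mitochondrial genome and some genes that every cell uses, such as *B2m*, were also listed at 0, so nothing is said of them.

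The count of called genes depended on single mice. It was 491 without c3667 of 26 M, 661 without c2293 of 26 M, 587 without c3580 of 20 M and 1750 without c3055 of 20 M. The mice were also divided into 2 sets by the sign of the first principal component of their heart libraries (30.5% of the heart variance). The labels do not name these sets, and a division by sign gives 2 sets in any data. With 3 mice of each age in set A and 4 of 20 M and 2 of 26 M in set B, 93 and 3 genes were called within the sets. Without c3054, c2140 and c3775, the 3 libraries of highest brain gene level, 809 genes were called (374 higher, 435 lower), with 11 of 20 proximal tubule markers called higher (median 1.12) and 13 of 24 tubule injury (median -1.56), 10 of 21 macrophage (median -1.46), 12 of 22 NF-kB and STAT3, 11 of 36 matrix and 9 of 30 cell cycle genes called lower. In that fit 10 of 34 amino acid and sugar genes, 3 of 7 straight tubule markers and 4 of 18 chemokine, cytokine and adhesion genes kept the direction above with a call, and 7 of 30 interferon genes were called lower. It still held c3667 and c3580, with mean log2 brain list levels of 7.96 and 7.59. The other libraries of 20 M and 26 M in it lay at 5.33 to 6.47. The proximal tubule list had a median difference of 1.26 in set A and 1.03 in set B, and the tubule injury list -1.38 and -1.44.

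Upstream sequence is shown for members of both directions, because the letters recognised by inflammatory and by tubule transcription factors are known. NF-kB and AP-1 are inducible factors that act on inflammatory and injury genes, and HNF1 and HNF4 are factors of the differentiated proximal tubule. RefSeq promoters of GRCm38 (250 bases before to 50 after a start, 32851 in all) were searched on both strands for a kappaB motif (GGGA and CC with any 4 bases between them), an AP-1 motif (TGANTCA), an HNF1 motif (GTTAAT and ATT with any 1 base between them) and an HNF4 motif (CAAAGTNCA). The 66 lower genes of the injury, complement, cytokine, NF-kB, matrix, TGF-beta and senescence lists were looked up for the first pair of motifs, and 44 of them had a promoter, with 51 promoters. The kappaB motif was in 19 of the 51 (37.3%) against 20.7% of all promoters, and the AP-1 motif in 9 (17.6%) against 7.81%. Of the 52 higher genes of the proximal tubule, straight tubule, amino acid, transporter and fatty acid lists, 43 had a promoter, with 52 promoters. The HNF4 motif was in 4 of the 52 (7.69%), which belong to 3 genes, against 1.41% of all promoters, and the HNF1 motif in 2 (3.85%) against 0.399%. Matches of different motifs may overlap. These shares were not tested, and a match of letters is not a site of binding. The lists were put together by known function, among them NF-kB signalling, and their uncalled members were not counted. The shares therefore cannot be tied to the difference between the ages. The windows below are 60 bases long, read 5′ to 3′ on the strand of the gene and end before the transcription start, with the matched motif in capitals. *Mmp12*, the lower gene with the smallest p, has an AP-1 match (chr9:7347303-7347362, + strand), *Plaur*, the urokinase receptor, an AP-1 match (chr7:24462387-24462446, + strand), *Cp*, ceruloplasmin, a kappaB match on the opposite strand (chr3:19957078-19957137, + strand) and *Birc3*, an inhibitor of apoptosis downstream of NF-kB, a kappaB match (chr9:7873193-7873252, - strand). Of the higher genes, *Lrp2*, the endocytic receptor megalin (chr2:69586150-69586209, - strand), and *Slc3a1*, a subunit of the cystine transporter (chr17:85028282-85028341, + strand), have an HNF4 match, and *G6pc*, the catalytic subunit of glucose-6-phosphatase (chr11:101367470-101367529, + strand), and *Prodh2*, hydroxyproline dehydrogenase (chr7:30493505-30493564, + strand), have an HNF1 match, that of *Prodh2* on the opposite strand.
Mmp12: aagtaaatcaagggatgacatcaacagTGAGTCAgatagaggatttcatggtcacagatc
Plaur: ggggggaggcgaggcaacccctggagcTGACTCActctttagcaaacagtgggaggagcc
Cp: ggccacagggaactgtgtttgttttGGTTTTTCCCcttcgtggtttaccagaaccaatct
Birc3: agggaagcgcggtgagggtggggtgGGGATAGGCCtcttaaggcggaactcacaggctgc
Lrp2: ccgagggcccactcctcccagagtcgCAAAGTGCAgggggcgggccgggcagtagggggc
Slc3a1: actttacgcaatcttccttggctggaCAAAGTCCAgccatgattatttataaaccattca
G6pc: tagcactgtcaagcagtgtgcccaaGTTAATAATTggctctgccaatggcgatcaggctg
Prodh2: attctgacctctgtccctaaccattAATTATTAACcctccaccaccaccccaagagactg

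Of the 20 proximal tubule markers, all tested, 16 were called higher and 0 lower, with a median difference of 1.09 and a range of 0.63 to 1.66. Of 7 tested markers of the proximal straight tubule, the last part of this segment, 5 were called higher and 0 lower, with a median of 1.38. In bulk tissue, fewer proximal tubule cells and less RNA of these genes per cell cannot be told apart. Below, the 5 values of 26 M are given in the order of mice c620, c2293, c3667, c3668 and c3775. *Slc34a1*, the main phosphate cotransporter of the proximal tubule, had normalized counts from 2582 to 16934 (median 6517) at 20 M and 16672, 23059, 21606, 17966 and 16374 at 26 M. Its difference was 1.53 (SE 0.32, limma adjusted p = 0.00219), and 6 of the 7 mice of 20 M lay below the lowest mouse of 26 M, the exception being c3055. *Lrp2*, the endocytic receptor whose promoter is shown above, had 2638 to 18863 (median 9745) at 20 M and 19224, 21381, 24829, 20405 and 20547 at 26 M, with no overlap. *Gatm*, which makes the precursor of creatine, ranged from 635 to 5309 (median 2367) at 20 M and was 3010, 5270, 8506, 5562 and 7017 at 26 M, a difference of 1.51 (SE 0.3). *Pck1*, the gluconeogenic enzyme of this segment, ranged from 656 to 2253 (median 1513) at 20 M and from 2173 to 4337 (median 2968) at 26 M, where only the highest mouse of 20 M reached into the 26 M range.

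In the straight tubule, the organic anion transporter *Slc22a7* had the largest difference of the list, 2.17 (SE 0.53, limma adjusted p = 0.00808). It ranged from 7.44 to 479 (median 91.3) at 20 M and was 383, 493, 463, 743 and 271 at 26 M, so the groups overlapped in the upper part of the 20 M range. *Slc7a13*, an amino acid transporter, had 1506 to 11913 (median 3997) at 20 M and 17987, 15405, 10125, 12981 and 8250 at 26 M. *Cyp7b1*, an oxysterol hydroxylase, had a difference of 0.9 (SE 0.23) and the lactate transporter *Slc5a8* one of 1.38 (SE 0.37). Among the mice of 20 M, c3580 was lowest in the proximal tubule list as a whole and c3055 was closest to 26 M. The mean log2 level of the 20 proximal tubule markers, relative to the mean of the 14 M mice, was -2.47 in c3580 and -0.22 in c3055, and the other five mice of 20 M lay between -1.43 and -0.99. At 26 M it was -0.35, 0.03, 0.13, -0.08 and -0.14. The number of proximal tubule markers called was 9 without c3580, 10 without c2293, 8 without c3667 and 4 in a fit of the 2 ages alone. Among these markers, the call of *Slc3a1*, whose promoter is shown above, was lost under 11 of 21 alternatives. The straight tubule count was 2 without c3580, 2 without c3667 and 0 by limma in the fit of the 2 ages alone.

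**Figure D1:**
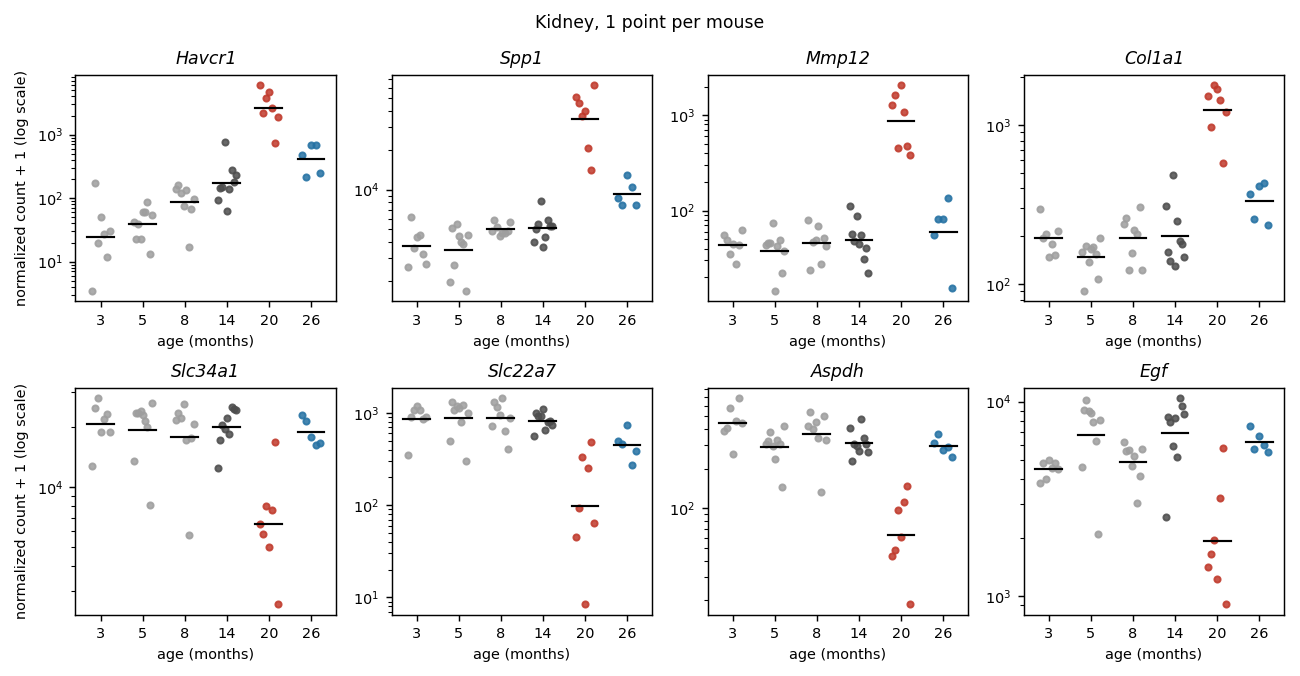
Normalized counts plus 1 (y axis, log scale) of 8 genes in each of the 45 kidneys by age in months (x axis), 1 point per mouse, with the geometric mean of the age group as a black line (20 M red, 26 M blue, 14 M dark grey). *Havcr1*, *Spp1*, *Mmp12* and *Col1a1* were lower at 26 M than in every mouse of 20 M, and *Aspdh* was higher than in every mouse of 20 M.

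Of 34 tested genes of amino acid and sugar metabolism, 20 were called higher and 0 lower (median 1.04), and of 19 tested transporters of organic anions, cations and drugs, 10 were called higher and 0 lower (median 1.02). Members that also stand in the marker lists count in both. *Aspdh*, *Dhtkd1* and *Aspa*, given below, are not members of either list. The amino acid and sugar count was 11 without c3580, 12 without c2293 or c3667 and 7 in a fit of the 2 ages alone, and the transporter count was 6 without c3580 and 3 with the 2 ages alone. *Aspdh*, aspartate dehydrogenase, had the smallest p of the higher genes. It ranged from 17.7 to 146 (median 59.5) at 20 M and was 246, 309.6, 364, 278 and 292 at 26 M, with no overlap and a difference of 2.24 (SE 0.32, limma adjusted p = 7.17e-05). *Ivd*, which breaks down leucine, was at 579 to 1203 (median 743) at 20 M and at 1486, 1753, 1607, 1741 and 1211 at 26 M, again without overlap. *Cth*, the cystathionine lyase of cysteine synthesis, ranged from 257 to 808 (median 617) at 20 M and was 911, 1118, 1737, 1483 and 1325 at 26 M, and *Cbs*, the enzyme before it, had a difference of 1.3 (SE 0.38, limma adjusted p = 0.0321). *Kmo*, of tryptophan breakdown, differed by 1.2 (SE 0.23), *Dhtkd1*, of lysine breakdown, by 1.23 (SE 0.21), *Aspa*, which cleaves N-acetylaspartate, by 1.25 (SE 0.2), *Prodh2* by 1.31 (SE 0.26) and *G6pc* by 1.34 (SE 0.36). The call of *Cbs* was lost under 9 of 21 alternatives, and that of *G6pc* under 5.

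Among the transporters, *Slc22a28* ranged from 366 to 1636 (median 696) at 20 M and was 1470, 2456, 3166, 2403 and 2820 at 26 M, a difference of 1.61 (SE 0.26, limma adjusted p = 0.000196). *Slc22a18* was at 352 to 1240 (median 781) at 20 M and at 1581, 1966, 2027, 1700 and 1313 at 26 M, and *Slc22a30* at 285 to 1647 (median 724) and at 1661, 2066, 2736, 1812 and 2300. Neither of this last pair overlapped between the groups. Other genes with the smallest p or the largest difference in this direction were *Aqp11*, an intracellular aquaporin of the proximal tubule (1.35, SE 0.22), *Fn3k*, which removes sugar from glycated proteins (0.9, SE 0.15), *Etnppl*, a phospholyase of phosphoethanolamine (1.49, SE 0.25), *Akr1d1*, a steroid reductase (1.67, SE 0.28), *Arsg*, a lysosomal sulfatase (0.75, SE 0.13), *Cyp2d12*, a cytochrome P450 (2.57, SE 0.47), and *Dnase1*, a secreted nuclease (2.49, SE 0.44). *Dnase1* ranged from 80.6 to 608 (median 196) at 20 M and was 892, 1623, 1992, 1671 and 622 at 26 M, without overlap. *Prok1*, a secreted ligand, had a difference of 2.33 (SE 0.73) but only 0 to 33.6 normalized counts at 20 M and 22.9 to 54.5 at 26 M, and its call was lost under 14 of 21 alternatives.

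Of 35 tested genes of fatty acid oxidation and peroxisomes, 6 were called higher and 0 lower (median 0.63), with 3 called without c3580 and 1 with the 2 ages alone. *Sirt3*, the mitochondrial deacetylase, was at 193 to 579 (median 357) at 20 M and at 617, 702, 769, 566 and 747 at 26 M, with a difference of 0.96 (SE 0.19, limma adjusted p = 0.00114). *Ppargc1a*, a coactivator of mitochondrial genes, was not called (0.28, SE 0.14, limma adjusted p = 0.262). Of 79 tested nuclear genes of oxidative phosphorylation, 76 had a difference above 0 and 1, *Ndufs3*, was called higher (0.53, SE 0.16), with a list median of 0.37. That call was lost without c1300, c2140, c3580, c3667, c3668 or c3775, and 4 genes were called without c3055. In the lists of smaller scope, 3 of 19 cholesterol synthesis genes were called higher, 2 of 24 antioxidant genes (*Sod2*, 0.79, SE 0.2, and *Sod3*, 0.89, SE 0.25), 1 without c3580, c2293, c3667 or c3775, and, of 21 hypoxia and glycolysis genes, *Vegfa* higher (0.77, SE 0.17) and *Hk2* lower (-1.75, SE 0.45). Of the cholesterol genes 0 were called by limma without c3580 or c3667, 1 without c2293 or c3668, and 5 without c3055. Higher members of the hypoxia list numbered 3 without c3055 or c620 and 2 without c3054.

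In the thick ascending limb 1 of 9 markers was called, *Egf*, a growth factor made by this segment, which ranged from 911 to 5802 (median 1642) at 20 M and was 5504, 7463, 5701, 6699 and 5984 at 26 M (difference 1.7, SE 0.33, limma adjusted p = 0.00122). *Umod*, the uromodulin of the same segment, was at 2142 to 6316 (median 4953) at 20 M and at 4280, 4866, 3156, 5097 and 3388 at 26 M, a difference of 0.0086 with an SE of 0.67, which leaves differences of more than 1 log2 unit in either direction within its error. In the distal convoluted and connecting tubule 2 of 8 markers were called higher. *Pvalb*, parvalbumin, ranged from 5.39 to 82.1 (median 46.3) at 20 M and was 86.8, 116, 313, 209 and 275 at 26 M, without overlap (difference 2.36, SE 0.48), and *Kl*, the co-receptor of FGF23 and a gene of mineral balance, ranged from 1026 to 5088 (median 2094) and was 3899, 5044, 6381, 4743 and 4926 (difference 1.17, SE 0.25). Of the list of phosphate, calcium and klotho genes 4 of 15 were called higher and 0 lower, *Slc34a1* and *Kl* with *Vdr*, the vitamin D receptor (0.88, SE 0.22), and *Slc34a3*, a phosphate cotransporter (1.72, SE 0.43), and the list median was 0.087.

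Of 7 markers each of collecting duct principal cells and intercalated cells, 10 of the endothelium, 9 of mural and juxtaglomerular cells and 7 of the urothelium, 0 were called by limma in each list, with medians of -0.045, 0.056, 0.12, -0.33 and -0.46. At an unadjusted p under 0.05 these 5 lists held 0, 0, 1, 4 and 1 genes. EdgeR called 0 in each, and DESeq2 called 3 of the mural list and 0 of the others. Renin itself, *Ren1*, was at 14.2 to 90.5 (median 49.3) at 20 M and at 26.3, 70.3, 29.2, 74.8 and 86.5 at 26 M, and 0 of 19 genes of the renin-angiotensin list were called by limma, edgeR or DESeq2 (5 at an unadjusted p under 0.05). Of 9 podocyte markers 1 was called lower (list median -0.016), and 0 by limma without c1300, c1315, c3580, c620, c3667, c3668 or c3775. Of 15 genes known to be higher in male kidney 5 were called higher, among them *Cyp4a12a*, an androgen-dependent fatty acid hydroxylase (1.56, SE 0.34), 10 without c3055 and 3 without c3580 and without c3667. The other called members, *Slc22a28*, *Cyp7b1*, *Slc7a13* and *Cyp4b1*, were already counted in the transporter or straight tubule lists above. *Kap*, an androgen-dependent transcript of the proximal tubule, ranged from 7579 to 64282 (median 24309) at 20 M and was 76581, 72747, 57746, 69761 and 34045 at 26 M, and was not called (1.3, SE 0.46, limma adjusted p = 0.077). Of 5 genes known to be higher in females, *Hao2*, a peroxisomal hydroxyacid oxidase, was called higher (1.46, SE 0.36).

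**Figure D2:**
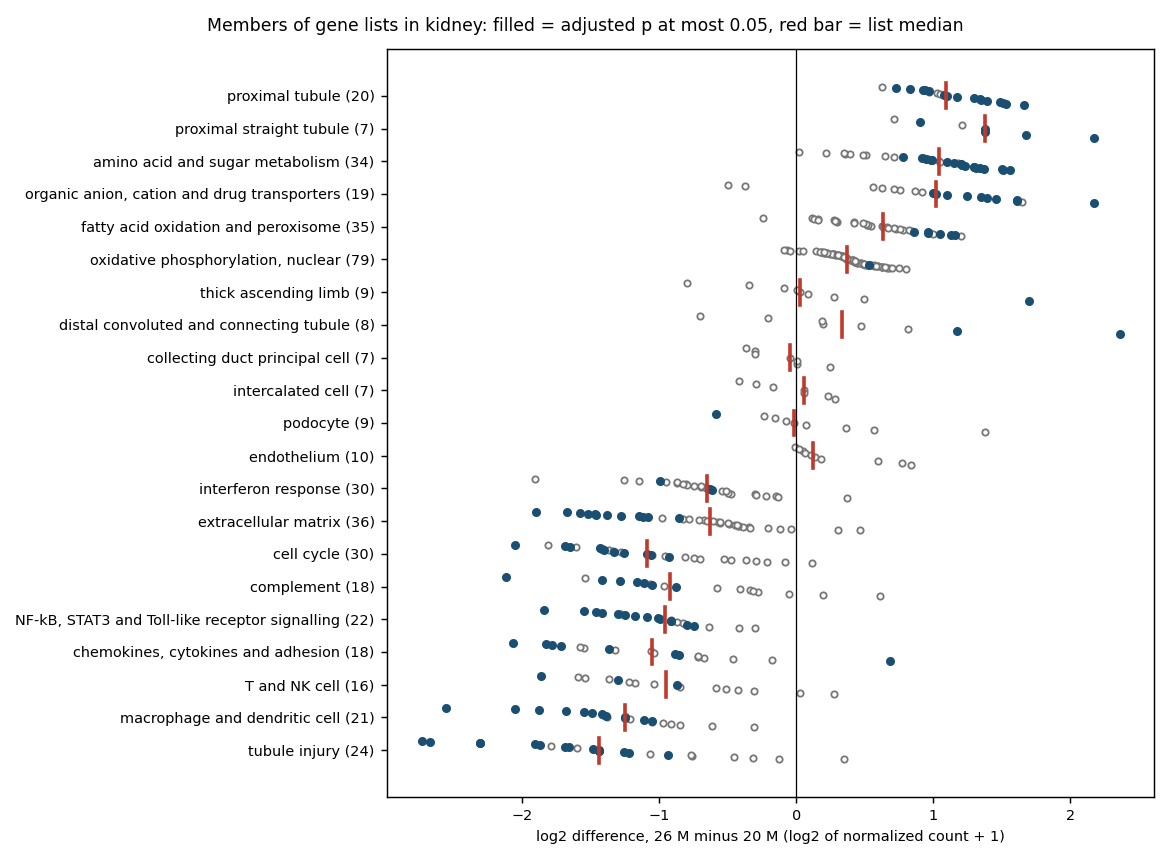
Log2 difference between 26 M and 20 M (x axis) of each tested member of 21 gene lists (y axis, number of tested members in parentheses). Filled points are called genes, open points are not, and the red bar is the list median. The median was 1.09 for proximal tubule, -0.045 for collecting duct principal cells and -1.44 for tubule injury.

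Of 24 tested genes of tubule injury, 15 were called lower and 0 higher, with a median of -1.44 and a range of -2.73 to 0.35, and between 10 and 16 were called when each mouse was left out in turn. *Havcr1*, the injury receptor KIM-1 that proximal tubule cells put on their surface, ranged from 730.4 to 6084 (median 2620) at 20 M and was 249.8, 472, 212, 691 and 679 at 26 M. All mice of 20 M lay above all mice of 26 M, and the difference was -2.67 (SE 0.63, limma adjusted p = 0.00597). *Lcn2*, a secreted iron-siderophore binder, ranged from 255 to 2686 (median 1091) and was 175, 119.7, 66.1, 216 and 182, again without overlap (-2.73, SE 0.6, limma adjusted p = 0.00323). *Spp1*, osteopontin, was at 14020 to 63494 (median 39707) at 20 M and at 7649, 8649, 7603, 13035 and 10463 at 26 M. *Anxa3*, an annexin, had the smallest p of the list (-1.44, SE 0.19, limma adjusted p = 1.87e-05), with 266 to 1026 (median 646) against 183, 224, 256, 238 and 260.4. *Cd44*, a hyaluronan receptor, had 520 to 680 in 6 mice of 20 M and 207 in c3055, against 179, 165, 177, 207 and 217, and *Cp* differed by -1.69 (SE 0.32).

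Of 21 tested markers of macrophages and dendritic cells 12 were called lower and 0 higher (median -1.25), and all 21 differences were below 0; 6 were called without c3667. The list took 0.101% to 0.494% of the normalized counts at 20 M and 0.0603% to 0.12% at 26 M. *Mrc1*, the mannose receptor, ranged from 243 to 536 (median 376) at 20 M and was 187, 119, 106, 168 and 125 at 26 M (-1.39, SE 0.21, limma adjusted p = 7.17e-05). *Adgre1*, which encodes F4/80, was at 160.4 to 683 (median 399) against 145, 73.6, 108, 133 and 137, and *Itgam*, the integrin CD11b, at 155 to 708 (median 374) against 146, 74.7, 35.6, 78.9 and 69.6. None of these 3 genes overlapped between the groups. *Mmp12*, a macrophage elastase, had the smallest p of all lower genes: it ranged from 382 to 2083 (median 1078) at 20 M and was 14.5, 54.9, 80.1, 80.5 and 135 at 26 M, a difference of -3.87 (SE 0.43, limma adjusted p = 4e-07). *Gpnmb*, a glycoprotein of lipid-laden macrophages, had the largest difference, -4.47 (SE 0.67), with 127 to 697 (median 218) against 5.26, 13.2, 5.09, 29.3 and 16.9. Neither *Mmp12* nor *Gpnmb* is a member of the macrophage list. Of 16 T and NK cell genes 3 were called lower, *Il7r* (-1.86, SE 0.44), *Ikzf1* (-0.87, SE 0.24) and *Lck* (-1.3, SE 0.4), and 1 without c3580, c2293 or c3667; of 12 B and plasma cell genes 0 were called by limma, edgeR or DESeq2 (median -0.8, 1 at an unadjusted p under 0.05). The call of *Lck* was lost under 12 of 21 alternatives, and that of *Ikzf1* under 4. Whether macrophage content and tubule gene levels are linked in these mice was not tested.

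Of 18 complement genes 7 were called lower and 0 higher (median -0.92), 3 without c2293 or c3667 and 4 without c1300 or c1315. The called members *C1qa*, *C1qb* and *C1qc* also count among the macrophage calls above. *C3*, the central component, ranged from 797 to 4960 (median 1969) at 20 M and was 556, 507, 250.5, 576 and 829 at 26 M (-2.12, SE 0.53, limma adjusted p = 0.0102), and *C1qb*, a chain of the first component, differed by -1.42 (SE 0.31) and the receptor *C3ar1* by -1.29 (SE 0.32). Of 18 chemokine, cytokine and adhesion genes 7 were called lower and 1 higher (median -1.05), with 3 lower without c2293, c3667 or c3668 and 4 without c1300 or c1315. *Vcam1*, an adhesion molecule for leukocytes, was at 619 to 2115 (median 1484) at 20 M and at 380, 468, 220, 476 and 499.7 at 26 M, without overlap (-1.83, SE 0.28, limma adjusted p = 0.000112). *Cxcl1*, a neutrophil chemokine, differed by -1.78 (SE 0.41), the macrophage growth factors *Il34* by -1.37 (SE 0.33) and *Csf1* by -0.89 (SE 0.25), and *Icam1* by -0.86 (SE 0.26). The call of *Icam1* was lost under 12 of 21 alternatives, and that of *Csf1* under 5. *Cxcl12*, a chemokine that retains leukocytes and is made by stroma, was the member called higher, with 423 to 1025 (median 724) against 873, 1323, 1371, 1321 and 1072 (0.68, SE 0.16). *Cx3cl1* (-0.46, SE 0.54), *Il1b* (-1.04, SE 0.37) and *Il10ra* (-0.72, SE 0.35) were not called, with limma adjusted p of 0.712, 0.0814 and 0.237. *Cx3cl1* was highest in c3054 and c2140 (1548 and 1090), which also had the highest brain gene levels, and its difference without the 3 libraries named above was -0.27 (SE 0.61). *Il6* and *Tnf* did not reach the filter: *Tnf* was at 0.933 to 15.9 normalized counts at 20 M and at 0 to 4.23 at 26 M.

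Of 22 genes of NF-kB, STAT3 and Toll-like receptor signalling, 14 were called lower and 0 higher (median -0.96), and all 22 differences were below 0; 8 were called in a fit of the 2 ages alone. *Stat3* was at 669 to 1124 (median 923) at 20 M and at 450.1 to 602 at 26 M, without overlap (-0.74, SE 0.15, limma adjusted p = 0.00167). *Nfkbiz*, an NF-kB cofactor, differed by -1.3 (SE 0.23), *Tnfrsf12a*, the receptor of TWEAK, by -1.55 (SE 0.3), *Birc3* by -1.18 (SE 0.25) and *Tlr4* by -0.8 (SE 0.22, limma adjusted p = 0.0188, lost under 6 of 21 alternatives). Interferon genes gave fewer calls: 3 of 30 were lower (median -0.65), 6 without c3055, 5 without c3054 and 1 without c1312, c3580, c2293, c3667 or c3668, although 29 of the 30 differences were below 0. For the genes of MHC class I and antigen processing 1 of 12, *Tap2*, was called lower (median -0.73), with 4 called without c3055, 2 without c3054 or c620 and 0 by limma without c3667. Of 19 immediate early genes 5 were called lower (median -0.7), among them *Atf3*, a stress-induced factor (-1.79, SE 0.44), with 2 called without c1300, c3580 or c3667 and 3 without c1312, c2293 or c3668.

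Of 36 tested genes of the extracellular matrix, 12 were called lower and 0 higher (median -0.63), and 9 to 13 when each mouse was left out. *Col1a1*, the main chain of collagen I, ranged from 576 to 1790 (median 1447) at 20 M and was 234, 368, 257, 413 and 432 at 26 M, a difference of -1.9 (SE 0.28, limma adjusted p = 7.17e-05). *Col1a2* was at 998 to 2724 (median 1630) against 613, 769.7, 470.4, 783 and 632, *Col3a1* at 871 to 3257 (median 1843) against 355, 746, 528, 749.9 and 741, and fibronectin, *Fn1*, at 437 to 1110 (median 666) against 169.6, 295, 201, 303 and 295. In all 4 of these matrix genes the groups did not overlap. Of 20 genes of TGF-beta and fibrosis signalling 7 were called lower and 1 higher (median -0.46). *Tgfb1*, the ligand, differed by -1.24 (SE 0.25), and *Bmp7*, a ligand known to counter TGF-beta in the kidney, was called higher (0.77, SE 0.17). *Ltbp2*, a protein of elastic microfibrils that is not a member of the matrix or TGF-beta lists, differed by -2.61 (SE 0.62).

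Of 30 cell cycle genes 11 were called lower and 0 higher (median -1.09), 5 without c3667 and 6 without c3668. *Top2a*, a topoisomerase of dividing cells, ranged from 273 to 792 (median 438) at 20 M and was 208, 138, 78.8, 105 and 143 at 26 M, without overlap (-1.69, SE 0.34, limma adjusted p = 0.00154). *Mki67*, which encodes the proliferation marker Ki-67, was at 243 to 831 (median 406) against 304, 78, 34.3, 89.5 and 109, where mouse c620 of 26 M lay within the 20 M range, and *Rrm2*, of nucleotide synthesis, differed by -1.42 (SE 0.29). Of 17 tested senescence genes 6 were called lower and 1 higher (median -0.74), with 2 higher without c1312 or c1315 and 3 without c3055. The lower members included *Mmp12*, *Cxcl1* and *Plaur* (-1.6, SE 0.33), which are secreted factors or their receptors, and the higher one was *Igfbp3*, a binding protein of insulin-like growth factors, with 149 to 715 (median 396) at 20 M and 813, 1118, 1296, 968 and 1016 at 26 M (1.69, SE 0.25, limma adjusted p = 7.17e-05). *Cdkn1a*, the cell cycle inhibitor p21, was not called (-0.8, SE 0.38, limma adjusted p = 0.219), with 139 to 384 (median 285) against 88.1, 142, 224, 146 and 187. *Cdkn2a* did not reach the filter, with 1.87 to 14.2 normalized counts at 20 M and 0.813 to 3.08 at 26 M. *Sytl2*, a regulator of vesicle exocytosis, was among the 10 lower genes of smallest p without standing in a list (-1.47, SE 0.22).

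Of 16 tested genes that the study names for kidney, a list chosen on these samples and so no independent evidence of direction, 8 were called lower and 3 higher. The lower count was 5 without c2293 and 4 without c3667, and the higher count 1 without c2140, c3580, c2293, c3667 or c3668. Several lists gave no call or 1 by limma: 0 of 72 ribosomal protein genes (median -0.12, 0 at an unadjusted p under 0.05 and 0 by edgeR or DESeq2), 0 of 23 heat shock and unfolded protein genes (median -0.11, 4 at an unadjusted p under 0.05, 0 by edgeR and 1 by DESeq2) and 1 of 18 clock genes, *Hlf*, an output factor of the clock (0.82, SE 0.23). *Arntl*, the core clock activator, had a difference of 0.12 (SE 0.28) and *Per1* one of -0.48 (SE 0.34), and neither was called. The call of *Hlf* was lost without c1300, c3580, c2293 or c3667, and 3 clock genes were called without c3055 and 2 without c3054. The hemoglobin gene *Hba-a2* was called higher (2.17, SE 0.66, limma adjusted p = 0.0365) with 32.9, 36.2, 178, 81.3 and 340.4 at 26 M against 6.2 to 37.3 at 20 M, and the erythroid list took 0.000645% to 0.00482% of the normalized counts at 20 M and 0.00314% to 0.0195% at 26 M; its part in the other results was not tested. The call was lost without c2140, c3580, c3667, c3668 or c3775.

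**Figure D3:**
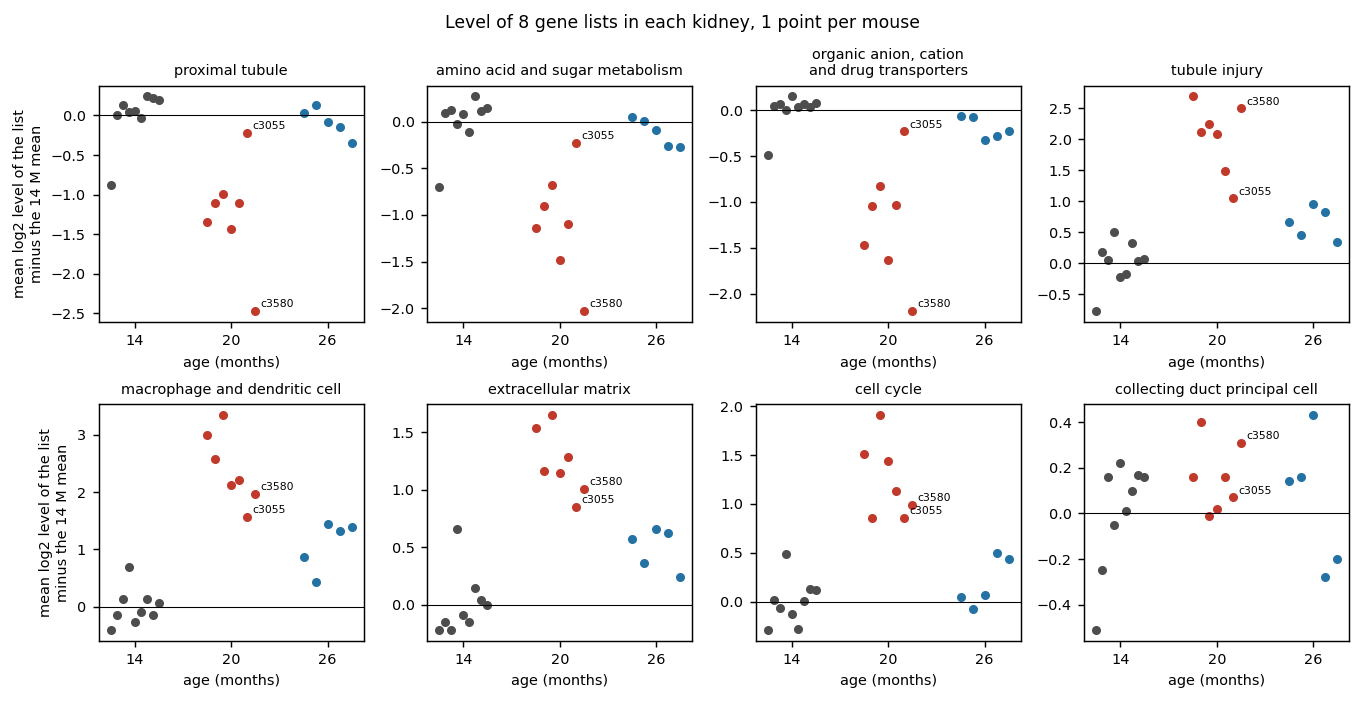
Mean log2(normalized count + 1) of the tested members of 8 gene lists in each kidney of 14, 20 and 26 M (x axis), minus the mean of the 14 M mice (y axis), 1 point per mouse, with mice c3055 and c3580 of 20 M named. The proximal tubule list lay at -2.47 in c3580 and -0.22 in c3055, and the tubule injury list at 1.05 to 2.69 at 20 M and 0.35 to 0.96 at 26 M.

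The 7 mice of 20 M spanned a wider range than the 5 of 26 M in the tubule lists, and the spreads were not tested. In the proximal tubule, amino acid and transporter lists c3580 was lowest and c3055 highest at 20 M. Relative to the 14 M mean, the other mice of 20 M lay at -1.43 to -0.99, -1.48 to -0.68 and -1.63 to -0.83 in these lists. For the proximal tubule list that is not wider than the -0.35 to 0.13 of 26 M. The level of the amino acid and sugar metabolism list, relative to the 14 M mean, ranged from -2.03 to -0.23 at 20 M and from -0.27 to 0.05 at 26 M, and that of the transporter list from -2.19 to -0.23 and from -0.33 to -0.06. Tubule injury ranged from 1.05 to 2.69 at 20 M and from 0.35 to 0.96 at 26 M. The highest injury levels belonged to c1300 (2.69) and c3580 (2.5), whereas the highest macrophage level belonged to c1315 (3.34) and c3580 was at 1.97, so the order of the mice was not the same in the 2 lists. Macrophage levels ranged from 1.57 to 3.34 at 20 M and from 0.44 to 1.45 at 26 M, matrix levels from 0.85 to 1.65 and from 0.24 to 0.66, and cell cycle levels from 0.86 to 1.91 and from -0.08 to 0.5. In each of these 4 lists every mouse of 20 M lay above every mouse of 26 M. The level of the collecting duct principal cell list ranged from -0.01 to 0.4 at 20 M and from -0.28 to 0.43 at 26 M, and overlapped.

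The kidneys of 14 M (n = 9) are given beside both groups. The contrast of 20 M and 14 M shares its 20 M mice with the comparison above, and the values are set side by side without a test of one against the other. Between 14 M and 20 M, 2119 genes were called higher at 20 M (12.6% of the tested genes) and 1698 lower (10.1%), and between 14 M and 26 M, 8 genes were called (0.0475%), with 733 at an unadjusted p under 0.05. All 8 were higher at 26 M, and among them were *Cd44*, *Mrc1*, *C1qa*, *Ctsc*, *Pros1*, *Aldh1a2* and an immunoglobulin segment, *Igkv14-126*. For the proximal tubule list the median was -1.29 between 20 M and 14 M, with 18 of 20 called lower, and -0.06 between 26 M and 14 M, with 0 called. *Slc34a1* was at 20568 ± 4178 (SD, n = 9) at 14 M, and *Aspdh* at 321 ± 75.8, which are within the range of the 26 M mice. For the tubule injury list the medians were 2.03 (21 of 24 called higher) and 0.6 (1 called), and for the macrophage list 2.44 (21 of 21 called higher) and 1.06 (2 called). *Havcr1* was at 226 ± 211 at 14 M, *Lcn2* at 38.7 ± 30.2, *Vcam1* at 183 ± 69.9 and *Col1a1* at 219.6 ± 114, and the 26 M means of these 4 genes, 461, 152, 409 and 341, lay above the 14 M mean by more than its SD. The fit called none of the 4 between 26 M and 14 M, with limma adjusted p of 1.0, 0.183, 0.0952 and 0.615.

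**Figure D4:**
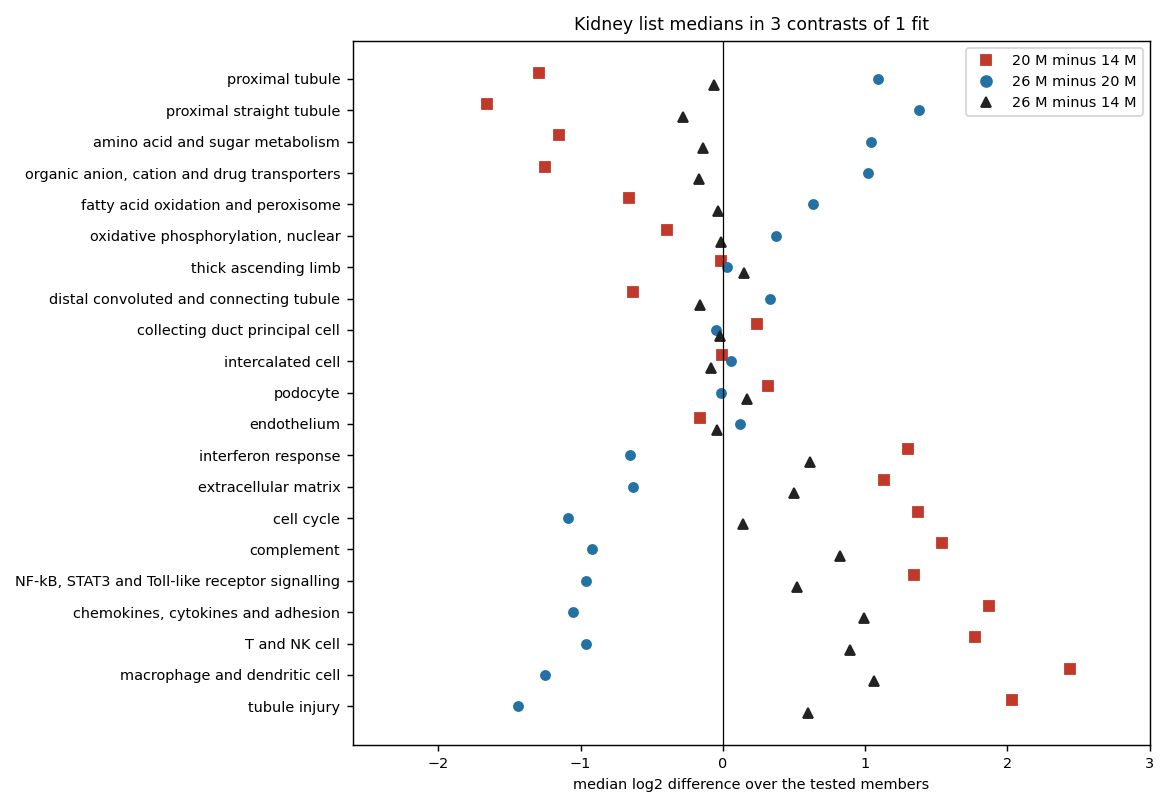
Median log2 difference over the tested members of 21 gene lists (x axis, lists on the y axis) in 3 contrasts of the same fit: 20 M minus 14 M (red squares), 26 M minus 20 M (blue circles) and 26 M minus 14 M (black triangles). For proximal tubule the 3 medians were -1.29, 1.09 and -0.06, and for macrophages 2.44, -1.25 and 1.06; the contrasts share mice.

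The contrast of 26 M and 20 M was also fitted in heart, lung and skeletal muscle. Liver and testis were not analysed here. With limma within each table, 0 of 15842 genes were called in heart (0.0%, with 300 at an unadjusted p under 0.05), 2 of 21257 in lung (0.00941%, 2440) and 1 of 17430 in skeletal muscle (0.00574%, 1334). The tables were normalized separately and the difference between organs was not tested. The extracellular matrix list had a median of -0.29 in heart, 0.24 in lung and 0.55 in skeletal muscle, and the macrophage list 0.024, 1.27 and 0.28, against -0.63 and -1.25 in kidney. *Col1a1* differed by -0.57 (SE 0.25) in heart, 0.18 (SE 0.51) in lung and 0.59 (SE 0.25) in skeletal muscle, and *Vcam1* by 0.025 (SE 0.17), 0.77 (SE 0.43) and 0.38 (SE 0.27), with limma adjusted p of at least 0.494 in each of these tests.

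**Figure D5:**
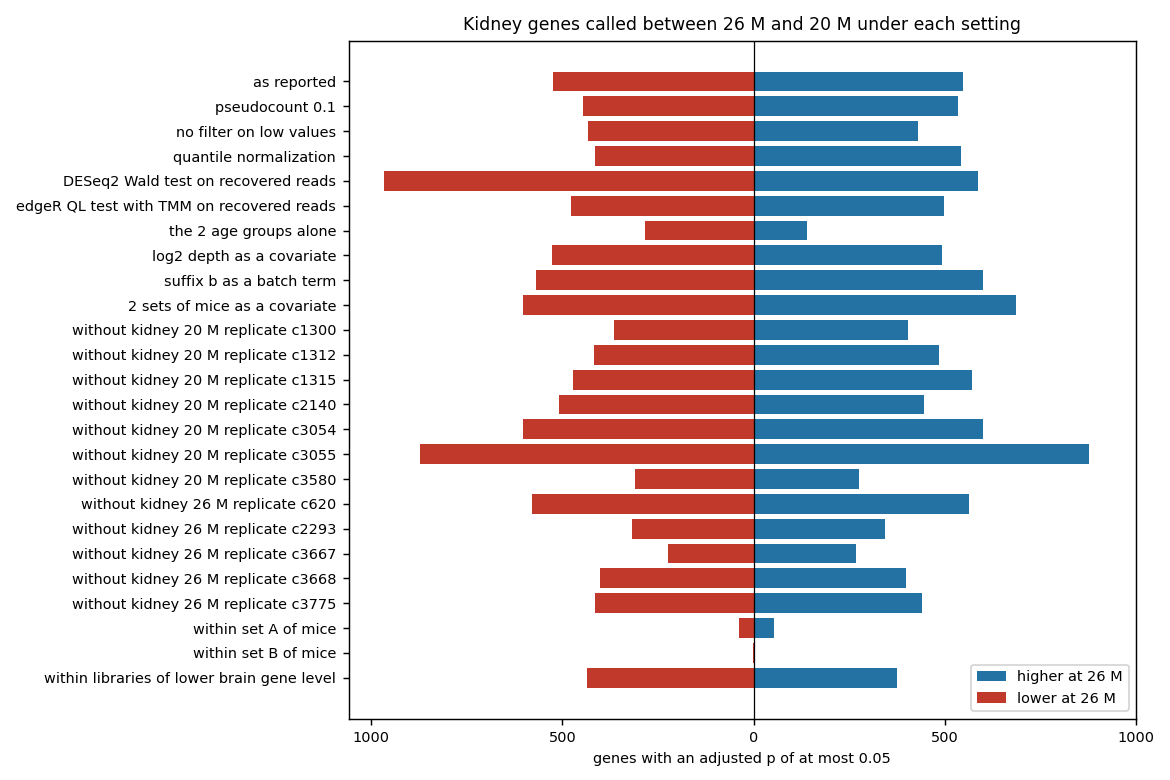
Number of called kidney genes between 26 M and 20 M (x axis), higher at 26 M to the right (blue) and lower to the left (red), for the comparison as reported and each alternative (y axis). The count was 1075 as reported, 491 without mouse c3667 of 26 M and 1750 without mouse c3055 of 20 M.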

How the data were processed

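Each deposited value is a signal: the authors' read count of a gene over the DESeq2 size factor of its library, set per organ. The authors made polyA libraries by ligation and PCR without molecular identifiers, aligned single reads to GRCm38 with HISAT2 (2.1.0) using strand information, and counted reads per gene with GenomicAlignments. Their notes also name bcl2fastq (2.20) and R (3.5.1). Reads of near-identical or overlapping genes may be split by this counting. PCR copies count as reads, so depth gives counting error only. Library totals of the 12 kidneys were 4176085 to 17759352 reads. Columns were matched to mice by name, and 0 columns stayed unused. All values were whole multiples of 1 step per library (within 0.01), which gave back whole reads. None of these 12 kidney libraries was identical to any other library of the series, and other pairs were not checked.

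Values were fitted as log2(value + 1) with limma (3.58.1), a trended prior and 6 age means, on R (4.3.3), after a filter that asked for 10 normalized counts in 5 kidney libraries, with Benjamini-Hochberg adjustment and a threshold of 0.05. The p-values set each difference against a spread per gene that was estimated from all 45 kidneys of 6 ages, not from the 12 compared mice alone. The members and lists were chosen with earlier results of these data known. Genes named are the 10 of smallest p and 5 of largest difference in each direction with a mean of at least 20 normalized counts, up to 4 of smallest p per list, a fixed set of kidney genes, those called between 26 M and 14 M, and, chosen after their values were seen, *Birc3*, *Lrp2*, *Slc3a1*, *Prodh2* and *G6pc*. The settings varied were the pseudocount (0.1), the filter (none), the scaling (quantile), the test (edgeR 4.0.16 and DESeq2 1.42.0, both on recovered reads), the ages fitted (2), covariates for depth, suffix b and the 2 sets of mice, and the mice, each left out in turn. Fits within the sets and without the 3 libraries of highest brain marker level were chosen after seeing the data. The contrast was tested on simulated kidney counts of 16628 genes. There limma found 45 of 100 genes changed by 1 log2 unit and 93 of 100 changed by 2, with 8 other calls. Whether these rates hold for the measured kidneys was not tested. Some genes that this rule takes are not reported here.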

Additional observations from a re-analysis of the deposited data

Results flagged for a closer look

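Among 192 groups of kidneys (96 named genes at 2 ages), 12 held a mouse whose normalized count stood apart from the others of its age by Dixon's test. Chance gives about 1 in 20, and 12 of 192 is close to that rate. Values of several genes in the same mouse are not independent. Mouse c3055 of 20 M gave 6 of the 12. It was lowest in *Cd44* with 207 (others 519.6 to 680.0), *Cybb*, a subunit of the phagocyte oxidase, with 198 (389 to 546), *Csf1* with 120.3 (230.0 to 367), *Tnfrsf12a* with 54.1 (127 to 239.6) and *Birc3* with 283 (592 to 862). It was highest in *Ppargc1a* with 1467 (986 to 1163). Mouse c3580 of 20 M was lowest in *Sod3*, the extracellular superoxide dismutase, with 1117 (2376 to 3857).

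At 26 M, c620 was lowest in *Arntl* with 213 (351 to 419.7) and in *Sod2*, the mitochondrial superoxide dismutase, with 1759 (2522 to 2713). Mouse c2293 was lowest in *Ikzf1* with 74.7 (139 to 176) and c3667 in *Sytl2* with 286 (457 to 506), and c3775 was highest in *Il1b* with 46.2 (28.5 to 31.8).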

How the results depend on the processing

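The number of called genes, 1075 as reported, fell to 423 (139 higher, 284 lower) in a fit of the 2 ages alone. There the spread per gene came from the 12 compared mice and not from all 45 kidneys. DESeq2 called 967 genes lower against 526. Of the calls, 32.9% were higher with the 2 ages alone and 37.8% with DESeq2, against 549 of 1075. Leaving out 1 mouse at a time gave 491 to 1750 calls, 267 to 878 higher and 224 to 872 lower. Within set A of mice 93 genes were called (54 higher, 39 lower) and within set B 3 (1 higher, 2 lower), where fewer mice were fitted, and without the 3 libraries of highest brain gene level 809 (374 higher, 435 lower). Quantile normalization moved the median of all genes from -0.052 to 0.023. Other causes were not tested.

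Of 96 named genes tested, 86 were called and 55 kept their call under all 21 alternatives. The sign turned in *Umod* (0.0086 as reported), at -0.19 with quantile normalization, -0.06 with DESeq2, -0.43 within set A and -0.15 to 0.11 with 1 mouse left out, in *Ren1* (0.23), at -0.057 within set B, -0.025 without the 3 libraries of highest brain gene level and -0.033 to 0.46 with 1 mouse left out, and in *Arntl* (0.12), at -0.24 within set B; none of these 3 was called. No paired analysis was possible because the mice of 20 M and 26 M are different animals, with no mouse number in common. Depth limits low genes such as *Tnf*, *Il6* and *Cdkn2a*, which were not tested.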

Other observations

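*Smcp*, a sperm mitochondrial gene that stood alone in the tested testis list, was called higher in kidney at 26 M (1.64, SE 0.45, limma adjusted p = 0.0208), with 9.92 to 124 normalized counts (median 23.7) at 20 M and 52.7 to 142 (median 90.7) at 26 M. The call was lost without c1300, c2140, c3580, c2293 or c3668. Of 4 lung epithelium genes 0 were called by limma and 1 by edgeR, and of 8 adipocyte genes 0 by limma, edgeR or DESeq2, with 0 at an unadjusted p under 0.05.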
